A study of Nothobranchius furzeri with 16 samples.

Results

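The transcripts described here are those of the AP-1 transcription factors in the brains of single adult Nothobranchius furzeri, the turquoise killifish, an annual fish with a short life that is used in ageing research. Members were found by symbol: rows of the deposited table named FOS, FOSB, FOSL1, FOSL2, JUN, JUNB, JUND or ATF3, with or without a fish copy letter or a copy suffix. This set of symbols was chosen with earlier results of these data known. The rule found 10 of 26739 gene models. They are FOS (Nfu_g_1_018967), FOSB (Nfu_g_1_000355), FOSL1 (Nfu_g_1_004633), FOSL2 (Nfu_g_1_006170), JUN (Nfu_g_1_020727), JUN (2 OF 2) (Nfu_g_1_020051), JUNBA (Nfu_g_1_015820), JUNBB (Nfu_g_1_019346), JUND (Nfu_g_1_002655) and ATF3 (Nfu_g_1_018748). Of these, 9 passed the filter on low values (at least 1 TPM in at least 8 of 16 fish) and were tested. FOSL1 reached 1 TPM in 4 fish and was not.

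The study compared 8 fish injected with bortezomib, an inhibitor that binds the catalytic core of the proteasome, with 8 fish injected with the vehicle, 1% DMSO in a salt solution. Fish were 12 to 14 weeks post hatch, came from one hatch, and received 5 intraperitoneal injections over 4 weeks (days 0, 6, 12, 18 and 24) at 10 µl per g of body weight, with allocation at random. The injected drug solution was at 500 µM, and its DMSO content is not given here. Groups held both sexes, and strain, genotype and the sex of each fish were not used here. Each library comes from the brain of 1 fish, sampled when treatment ended, so p-values measure the spread between fish. The comparison asks how transcript levels in the brain differ after repeated injection of a proteasome inhibitor into the living animal.

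AP-1 is not a single protein. FOS-family and JUN-family proteins carry a basic region and a leucine zipper (bZIP) and bind DNA as dimers. JUN proteins can pair with each other, whereas FOS proteins mainly pair with a JUN protein. FOS, FOSB, JUN and JUNB are immediate early genes in mammals, transcribed within minutes of neuronal firing or growth factor signalling, while JUND is the more constitutive JUN. ATF3 is a related bZIP factor induced by cellular stress. FOS and JUN proteins are short-lived and are themselves degraded by the proteasome, but the values here are transcripts only.

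Each of the 9 tested AP-1 models had a lower mean in bortezomib brains, and FOS had the lowest log2 fold change of them; 43.4% of all tested models had a log2 fold change below 0. FOS fell to 13.9 ± 2.73 TPM in bortezomib fish, against 45.4 ± 13.8 TPM in DMSO fish (mean ± SD, n = 8 each; TPM, a transcript level relative to all transcripts of a fish, allows for gene length). FOSL2, JUN, JUNBB and JUND fell too, by smaller amounts. FOSB, JUN (2 OF 2), JUNBA and ATF3 did not pass the test. In all, 5 of 9 models were called lower and 0 higher by limma at a Benjamini-Hochberg adjusted p under 0.05, where 1.25% of all 18529 tested models were called lower, 3.61% higher and 4.86% in either direction. Under median-of-ratios scaling the split over all models was 421 lower and 534 higher, in place of 232 lower and 669 higher, and the same number of members, 5, was called. The median log2 fold change was -0.53 over the 9 models and 0.03 over all tested models. With 4 fish set aside whose libraries held abundant pituitary hormone transcripts (hereafter the pituitary-positive fish), 3 of the 9 were called lower. In that fit 66 of all 18529 tested models were called lower. In bulk tissue, fewer cells that transcribe a gene and less transcript per cell cannot be told apart.

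**Figure D1:**
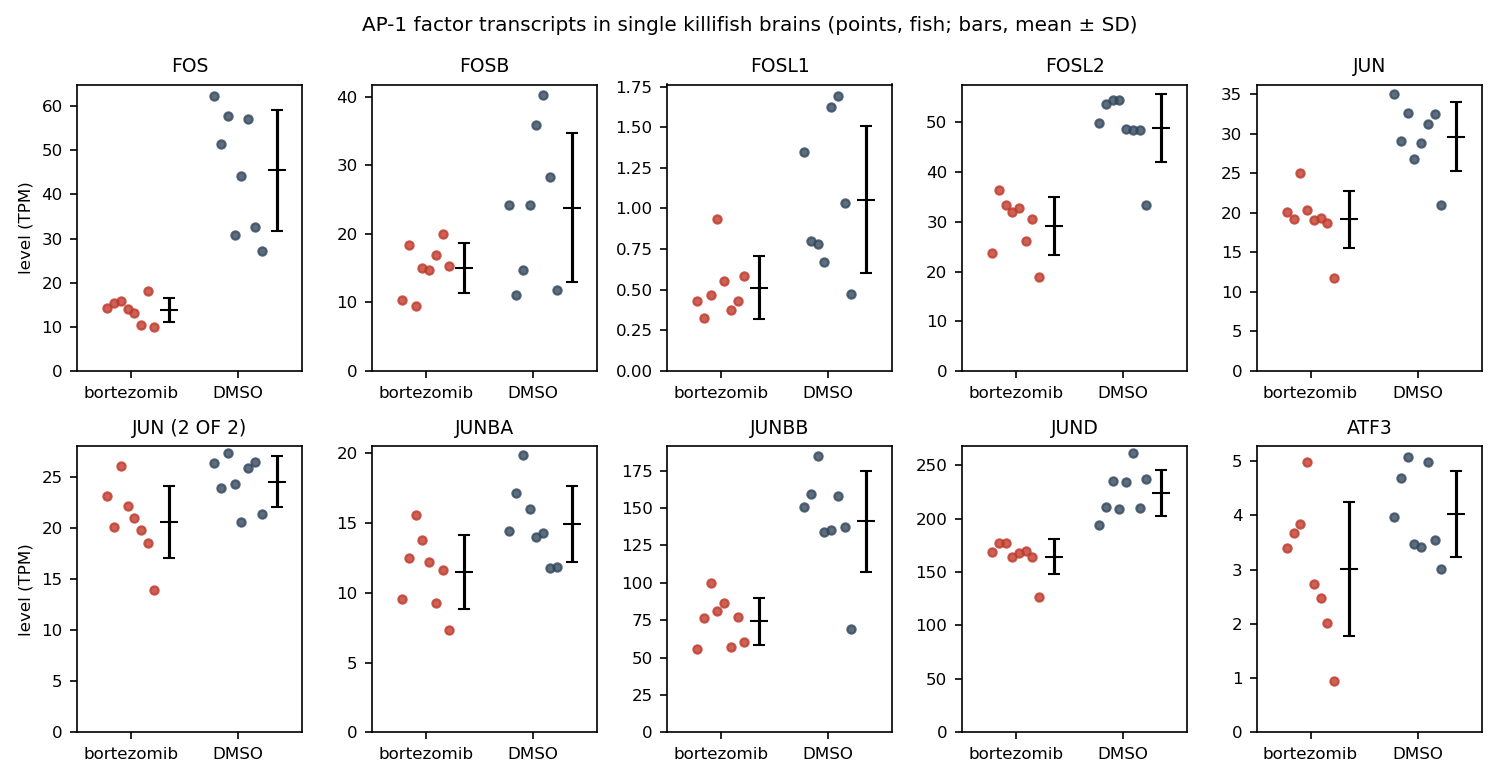
Level of each of the 10 AP-1 factor models in TPM (vertical axis, from 0), with 1 point per fish, bortezomib at the left and DMSO at the right, and the mean ± SD beside each group. Only FOS and JUND show groups that do not overlap, and single low fish (DMSO replicate 8 in JUNBB and FOSL2, bortezomib replicate 8 in JUND) stand away from their groups.

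Neuron markers were abundant in every fish. The summed level of 16 neuron marker models ran from 4529 to 5195 TPM in bortezomib fish and from 3087 to 4410 TPM in DMSO fish, so the groups did not overlap. The sum is weighted towards abundant models such as SNAP25 (1 OF 2), with a mean of 1264 TPM in bortezomib fish and 976.2 TPM in DMSO fish. Of these 16, 1 model, SNAP25 (2 OF 2), was called higher in bortezomib fish and 0 lower (over all models 3.61% and 1.25%). The list median log2 fold change was 0.30, with 2 models below 0. Before adjustment in limma, 8 of the 16 were higher and 0 lower at p under 0.05, against 2635 and 1285 of all 18529 models. The 9 oligodendrocyte marker models summed to 5743 to 10865 TPM in bortezomib fish and 7623 to 13978 TPM in DMSO fish. Of these, 8 had a log2 fold change below 0, with a list median of -0.24 and 0 called lower in limma (4 at p under 0.05 before adjustment), and the other one, MAG, was called higher (0.76, limma adjusted p = 0.0404). Summed myeloid markers (11 models) were at 41.2 to 120.1 TPM in bortezomib fish and 60.6 to 126.4 TPM in DMSO fish. Of the 10 tested, 9 had a log2 fold change below 0, with a list median of -0.25. Of these 10, 0 were called in limma (3 lower and 0 higher at p under 0.05 before adjustment). Among 7 tested radial glia and astrocyte models, 1 was called lower, GLUL (2 OF 2), and 0 higher, with a list median of 0.06. The 11 pituitary models summed to 4256 and 3732 TPM in bortezomib replicates 6 and 7 and to 6113 and 2164 TPM in DMSO replicates 5 and 6, and were at 47.7 TPM or less in the other 12 fish. The part that these marker levels play in the AP-1 results was not tested, apart from the values without the 4 fish given below.

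Among the FOS-family genes, FOS itself is the classic marker of recent neuronal activity. The hour of sampling, the order of dissection and the interval from the last injection were not used here, and their part was not tested. The level of FOS in bortezomib fish ran from 10.1 TPM through a median of 14.2 TPM to 18.1 TPM, and in DMSO fish from 27.1 through 47.8 to 62.3 TPM. Every bortezomib fish lay below every DMSO fish, which was so for 0.221% of all tested models, while the opposite order, seen in 0 members, held for 1.08%. FOS had a log2 fold change of -1.60 ± 0.18 (± SE; limma adjusted p = 2.80e-05) on the log2(TPM + 1) scale, a 3.03-fold lower level. With any 1 fish left out the value for FOS stayed between -1.70 and -1.53, and it was -1.53 without the pituitary-positive fish (limma adjusted p = 0.00214).

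FOSL2, also called Fra-2, is a longer-lived FOS relative that lacks a strong activation domain. It ran from 18.9 through a median of 31.3 to 36.3 TPM in bortezomib fish and from 33.3 through 49.2 to 54.5 TPM in DMSO fish. Of the 8 bortezomib fish, 6 lay below every DMSO fish, and the groups met only through DMSO replicate 8, the 33.3 TPM fish. FOSL2 had a log2 fold change of -0.74 ± 0.13 (limma adjusted p = 0.00316). It was -0.73 without the pituitary-positive fish (limma adjusted p = 0.0474).

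FOSB, whose truncated form accumulates after repeated stimulation in the mammalian brain, was the most variable of the tested members in DMSO fish. Its level ran from 9.54 through 15.2 to 20.0 TPM in bortezomib fish and from 11.1 through 24.2 to 40.3 TPM in DMSO fish. The coefficient of variation was 24.0% in bortezomib fish and 45.6% in DMSO fish. All 8 bortezomib fish were under the DMSO median, yet DMSO replicates 2 and 8, at 11.1 and 11.8 TPM, were below 6 of the 8 bortezomib fish. The log2 fold change of -0.53 ± 0.25 did not pass (limma adjusted p = 0.228; 95% confidence interval -1.06 to -0.01 without adjustment). The highest DMSO fish were replicates 6 and 5, at 40.3 and 35.9 TPM, which also carried pituitary transcripts; bortezomib replicates 7 and 6, which did so too, were at 20.0 and 16.9 TPM. Without these 4 fish the log2 fold change of FOSB was -0.37 (limma adjusted p = 0.419). With the first principal component of the group-centred values as a covariate the call was made (-0.53, limma adjusted p = 0.018). The estimate was the same as in the main fit. Over all models that fit called 519 lower and 1915 higher, in place of 232 and 669.

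FOSL1, or Fra-1, was the lowest member in both groups. It stood at 0.323 through a median of 0.447 to 0.938 TPM in bortezomib fish and 0.475 through 0.918 to 1.69 TPM in DMSO fish. Of the bortezomib fish, 5 were below every DMSO fish. The difference in mean log2(TPM + 1) was -0.42 (two-sided exact permutation p = 0.00606, for this gene alone and not adjusted). When every model with a value above 0 was tested, the limma adjusted p of FOSL1 was 0.0741. DMSO replicates 6 and 5 were again the highest fish, at 1.69 and 1.62 TPM, and without the pituitary-positive fish the difference was -0.25 (two-sided exact permutation p = 0.0693).

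The JUN family supplies the main partners of the FOS proteins, and by level JUND came first. JUND ran from 126.4 through a median of 168.3 to 177.5 TPM in bortezomib fish and from 193.8 through 222.6 to 261.1 TPM in DMSO fish. As in FOS, the groups did not overlap, although the change was small. JUND had a log2 fold change of -0.44 ± 0.07 (limma adjusted p = 0.00238), a level 26.6% lower in bortezomib fish. Its coefficient of variation was 9.87% in bortezomib fish and 9.66% in DMSO fish, the lowest of the 10 models in each group. Its log2 fold change was -0.40 without the pituitary-positive fish (limma adjusted p = 0.0391).

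The table holds a pair of JUNB copies, and the more abundant one fell. JUNB is an immediate early gene in mammals whose protein often restrains JUN. JUNBB ran from 56.1 through a median of 76.6 to 99.9 TPM in bortezomib fish and from 69.3 through 143.8 to 185.0 TPM in DMSO fish. All DMSO fish but replicate 8, at 69.3 TPM, were above every bortezomib fish. JUNBB had a log2 fold change of -0.90 ± 0.17 (limma adjusted p = 0.00583), and -0.82 without the pituitary-positive fish, where the call ended (limma adjusted p = 0.0703). JUNBA, the minor copy, ran from 7.33 through 11.9 to 15.6 TPM in bortezomib fish and from 11.7 through 14.3 to 19.9 TPM in DMSO fish. Its groups overlapped and its log2 fold change of -0.36 ± 0.14 did not pass (limma adjusted p = 0.138).

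JUN is likewise listed as 2 models. JUN encodes the founding member of the family, a target of the JUN N-terminal kinases. JUN ran from 11.8 through 19.3 to 25.03 TPM in bortezomib fish and from 20.9 through 30.2 to 35.1 TPM in DMSO fish, with 7 of the 8 bortezomib fish below every DMSO fish. The exception was bortezomib replicate 3, at 25.03 TPM. JUN had a log2 fold change of -0.61 ± 0.12 (limma adjusted p = 0.0103), and -0.60 without the pituitary-positive fish, where the call ended (limma adjusted p = 0.0792). JUN (2 OF 2) ran from 13.9 through 20.5 to 26.0 TPM in bortezomib fish and from 20.5 through 25.1 to 27.3 TPM in DMSO fish. Its log2 fold change was -0.25 ± 0.10 (limma adjusted p = 0.164). The sources used here do not give how reads shared by copies were counted, so the split of reads within each pair of copies is uncertain.

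ATF3, a stress-induced factor that in mammals is a common readout of the unfolded protein and injury responses, was low and not called. It ran from 0.954 through 3.07 to 4.99 TPM in bortezomib fish and from 3.01 through 3.76 to 5.07 TPM in DMSO fish. The groups overlapped, with 4 bortezomib fish below every DMSO fish and the lowest value in bortezomib replicate 8. The coefficient of variation of ATF3 was 41.1% in bortezomib fish, the highest of the 10 models in that group, and 19.7% in DMSO fish. ATF3 had a log2 fold change of -0.38 ± 0.18 (limma adjusted p = 0.253), with an unadjusted 95% confidence interval from -0.77 to 0.01. Without bortezomib replicate 8 the value for ATF3 was -0.24 (limma adjusted p = 0.329).

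**Figure D2:**
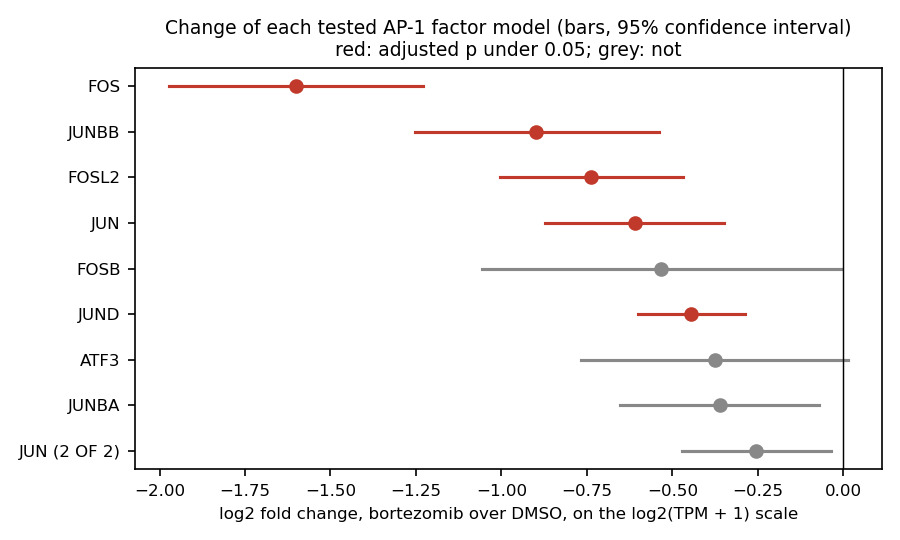
Log2 fold change of the 9 tested AP-1 models, bortezomib over DMSO, on the log2(TPM + 1) scale, with unadjusted 95% confidence intervals as bars; red marks an adjusted p under 0.05. FOS lies at -1.60, the other called models (JUNBB, FOSL2, JUN and JUND) between -0.90 and -0.44, and the interval of ATF3 reaches 0.01.

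Whether the change differed between members was tested directly. For each pair the log2(TPM + 1) difference was taken within each fish and compared between groups by a two-sided exact permutation test over 12870 splits, with adjustment over the 10 pairs compared. The log2 fold change of FOS was lower than that of each of the 8 other tested models. The difference in log2 fold change was smallest against JUNBB (-0.70, 95% interval -1.005 to -0.40, adjusted exact p = 0.00117) and FOSL2 (-0.86, -1.20 to -0.52, adjusted exact p = 0.000666). It was largest against JUN (2 OF 2), at -1.35 (-1.71 to -0.98, adjusted exact p = 0.000311). Against FOSB it was -1.07, with the widest interval (-1.74 to -0.40, adjusted exact p = 0.00373). These pairs share FOS and are not independent of each other. FOS had the lowest log2 fold change of the tested members, and the adjustment does not cover the choice of FOS as the reference.

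The copies differed in their change as well. The ratio of JUN to JUN (2 OF 2) in TPM was 0.932 ± 0.0552 in bortezomib fish and 1.21 ± 0.129 in DMSO fish (SD, n = 8 each), and JUN was the higher copy in 1 of 8 bortezomib fish and 7 of 8 DMSO fish. The log2 fold change was lower in JUN than in JUN (2 OF 2), with a difference of -0.36 (95% interval -0.49 to -0.23, adjusted exact p = 0.000666). The ratio of JUNBB to JUNBA was 6.55 ± 0.804 in bortezomib fish and 9.47 ± 1.81 in DMSO fish. The log2 fold change was lower in JUNBB than in JUNBA, with a difference of -0.54 (95% interval -0.80 to -0.27, adjusted exact p = 0.00224). Both differences held without the pituitary-positive fish, at -0.35 and -0.47 (adjusted exact p = 0.00361 and 0.0216).

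**Figure D3:**
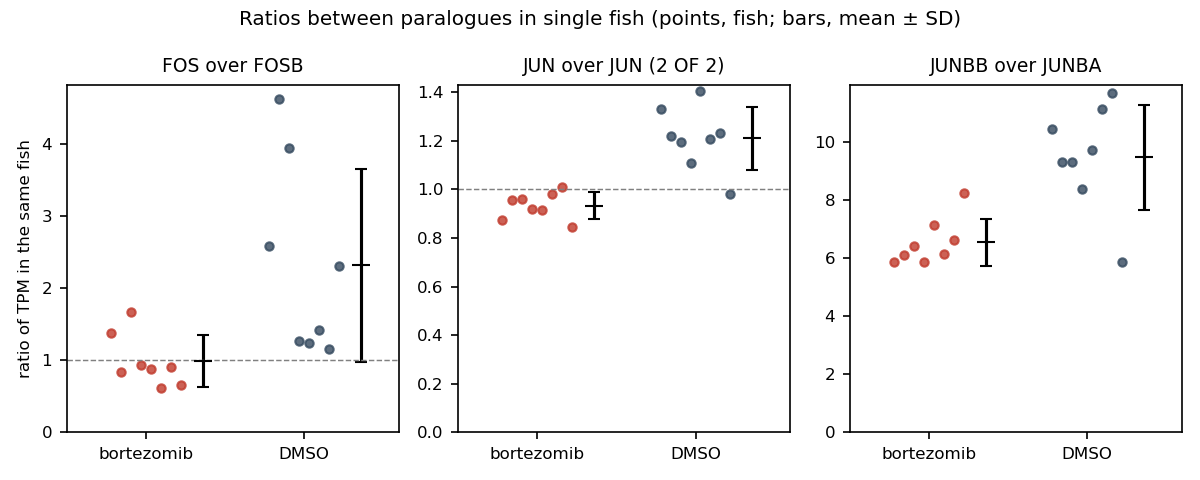
Ratio of TPM within the same fish (vertical axis, from 0) for FOS over FOSB, JUN over JUN (2 OF 2) and JUNBB over JUNBA, with 1 point per fish, bortezomib left and DMSO right, and mean ± SD; the dashed line in the first and second panels marks a ratio of 1. The ratio of FOS to FOSB exceeds 1 in 2 of 8 bortezomib fish and in 8 of 8 DMSO fish.

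The make-up of the AP-1 transcript pool can be given as shares of TPM. The 10 models summed to 351.7 ± 42.8 TPM in bortezomib fish and 557.4 ± 65.2 TPM in DMSO fish. FOS made up 3.95% ± 0.562 of this sum in bortezomib fish and 8.04% ± 1.86 in DMSO fish. JUND made up 47.0% ± 2.91 in bortezomib fish and 40.6% ± 5.97 in DMSO fish. The FOS family summed to 0.203 ± 0.0233 of the JUN family in bortezomib fish and 0.273 ± 0.0380 in DMSO fish, with overlapping ranges. These shares follow from the levels above and were not tested apart from them.

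In both groups the order of mean levels began with JUND, then JUNBB, then FOSL2, and each of the first 2 exceeded the next in 8 of 8 fish. FOS was at rank 7 of 10 in bortezomib fish, between FOSB and JUNBA, and at rank 4 in DMSO fish, between FOSL2 and JUN. Some neighbours did not keep the same order in all 8 fish of a group. In bortezomib fish these were JUN (2 OF 2), JUN, FOSB and FOS, where each exceeded the next in 6 or 7 of 8 fish. In DMSO fish FOSL2 exceeded FOS in 5 of 8 fish, JUN exceeded JUN (2 OF 2) in 7, JUN (2 OF 2) exceeded FOSB in 5, and FOSB exceeded JUNBA in 5. FOS exceeded JUN in 0 of 8 bortezomib fish and in 8 of 8 DMSO fish. JUNBA, ATF3 and FOSL1 closed the order in both groups.

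Fish differed in a way that cut across several members. Bortezomib replicate 8 was the lowest of its group in 7 of the 10 models (FOS, FOSL2, both JUN models, JUNBA, JUND and ATF3). DMSO replicate 8 was the lowest of its group in 6 (FOS, FOSL1, FOSL2, JUN, JUNBB and ATF3). The share of all models lowest in these fish is not given here, and whether the pattern is particular to AP-1 was not tested. Bortezomib replicate 3 and DMSO replicate 3 were each the highest of their group in 4 models, JUN (2 OF 2), JUNBA and JUNBB among them. With both fish numbered 8 left out, a check chosen after the values were seen, the same count of 5 members was called, and the log2 fold change was -1.64 in FOS, -0.73 in FOSL2 and -0.38 in JUND. In FOSB the lowest fish were bortezomib replicate 3 and DMSO replicate 2, the latter at 11.1 TPM with DMSO replicate 8 next at 11.8 TPM. JUND was not low in DMSO replicate 8, which had rank 7 of 8 counted from the lowest, at 237.0 TPM.

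**Figure D4:**
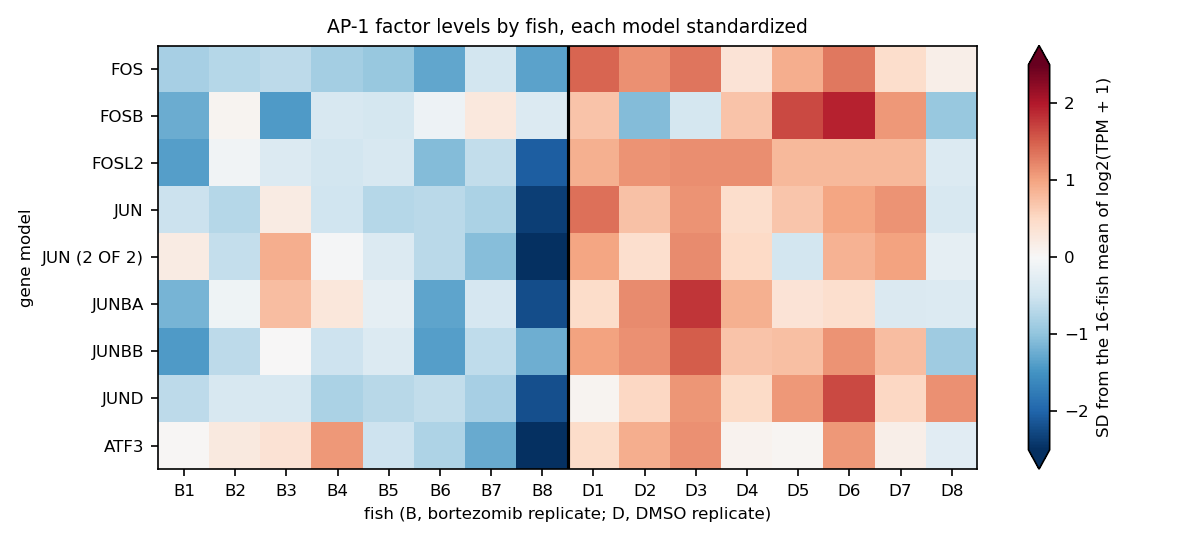
Level of the 9 tested AP-1 models (rows) in the 16 fish (columns, bortezomib left of the line, DMSO right), as SD from the 16-fish mean of log2(TPM + 1), red high and blue low. Bortezomib replicate 8 is the deepest blue column, and FOSB is blue in DMSO replicates 2 and 3, where the other 8 models are red.

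Among models other than the 10 AP-1 members, those most like each tested member over the 16 fish were sought by standardizing each log2(TPM + 1) profile and taking the mean absolute difference, in SD. Group means were not removed, so the measure includes the difference between bortezomib and DMSO fish and is not separate from it. Outside the AP-1 set, nearest to FOS were NPAS4A, a neuronal activity-dependent transcription factor (0.266 SD), the unnamed model Nfu_g_1_012693 (0.280 SD) and the zinc finger factor EGR4 (2 OF 2) (0.292 SD), where the median over all models was 1.16 SD. Nearest to FOSL2 were EGR4 (2 OF 2) (0.209 SD), the adhesion receptor BAI1 (3 OF 3) (0.261 SD) and the kinase PLK2B (0.274 SD). JUNBB was nearest to EGR2A (0.272 SD), EGR4 (2 OF 2) (0.303 SD) and GPR137B (1 OF 2) (0.331 SD). JUN and JUND shared the first 2 models outside the set, NPAS4A and IER2 (1 OF 2), at 0.303 and 0.339 SD from JUN and 0.337 and 0.338 SD from JUND. The third was C25H1ORF51 (2 OF 2) for JUN (0.356 SD) and the kinase PIM3 for JUND (0.338 SD).

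For the members that were not called, the nearest models outside the set are likewise given. FOSB was nearest to EGR3 (0.357 SD), ABCH1 (0.388 SD) and GPR26 (0.403 SD), and none of these was called between groups. JUNBA was nearest to MYCL1B, a MYC relative (0.338 SD), C25H1ORF51 (2 OF 2) (0.361 SD) and FBXL7 (0.366 SD). JUN (2 OF 2) was nearest to SOX10 (1 OF 2), a factor of the oligodendrocyte lineage (0.423 SD), NEDD9 (0.450 SD) and TMCC1 (2 OF 2) (0.452 SD). ATF3 was nearest to SOCS8 (0.396 SD), ADPRH (0.405 SD) and the unnamed model Nfu_g_1_015927 (0.427 SD). Some members were nearer to each other than to these models. JUNBB and FOSL2 were 0.256 SD apart, which put FOSL2 ahead of EGR2A for JUNBB and JUNBB ahead of BAI1 (3 OF 3) for FOSL2. JUN and JUN (2 OF 2) were 0.337 SD apart, ahead of IER2 (1 OF 2) for JUN and of SOX10 (1 OF 2) for JUN (2 OF 2), and FOSL2, at 0.348 SD from JUN, was ahead of C25H1ORF51 (2 OF 2). ATF3 and JUN (2 OF 2) were 0.399 SD apart, ahead of ADPRH for ATF3 and of SOX10 (1 OF 2) for JUN (2 OF 2). FOSB and ATF3, the pair farthest apart, were 1.12 SD apart.

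Of 23 tested models of other bZIP proteins that can pair with FOS or JUN, 1 was higher, 2 were lower and 20 did not pass (over all models 3.61% were called higher and 1.25% lower), with a median log2 fold change of -0.02. JDP2, a repressor that pairs with JUN, ran from 22.7 through a median of 25.9 to 30.9 TPM in bortezomib fish and 28.4 through 33.1 to 35.7 TPM in DMSO fish (log2 fold change -0.31 ± 0.07, limma adjusted p = 0.026). The JDP2 call ended when bortezomib replicate 6 or 7 or DMSO replicate 3 or 7 was left out (limma adjusted p of up to 0.0613), and without the pituitary-positive fish (-0.26, limma adjusted p = 0.137). Of the 2 models named BATF3, a JUN partner known from mammalian dendritic cells, one (Nfu_g_1_018767) was at 1.57 through 2.58 to 3.76 TPM in bortezomib fish and 4.12 through 5.31 to 7.10 TPM in DMSO fish. No bortezomib fish reached a DMSO fish in this BATF3 model (log2 fold change -0.81 ± 0.14, limma adjusted p = 0.00359). The other BATF3 model, named after its values were seen, had a log2 fold change of 0.27 ± 0.18 (limma adjusted p = 0.397). In the RefSeq annotation of the species (assembly NfurGRZ-RIMD1) batf3 and atf3 are next to each other. Which of the 2 BATF3 models is this neighbour is not known, since the identifiers used here were not found in RefSeq. NFE2L1 (1 OF 2), a copy of a factor known to drive proteasome genes, rose by 0.40 ± 0.07 on the log2 scale (limma adjusted p = 0.00208; 44.5 to 58.2 TPM in bortezomib fish and 34.3 to 41.7 TPM in DMSO fish).

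Genes upstream of AP-1 are given as a list of factors and a list of kinases, beside 4.86% of all models called in either direction; counts of 0 in lists this short are near that share. Among 28 tested models of factors that drive FOS and JUN transcription, such as SRF, ELK factors, CREB1 and MEF2 factors, 0 were called in limma, with log2 fold changes from -0.37 to 0.38 and a median of -0.03. Before adjustment, 1 was higher and 3 lower at p under 0.05. The SRF model Nfu_g_1_016085 was called higher without bortezomib replicate 8 (0.43, limma adjusted p = 0.0276). The other SRF model, Nfu_g_1_015776, named after its values were seen, had a log2 fold change of -0.17 over all 16 fish (limma adjusted p = 0.736). Of the MEF2D models, 1 was called lower without DMSO replicate 6 (-0.42, limma adjusted p = 0.0487) and under each of the 3 other scalings. Adjusted for the first principal component, that MEF2D model (-0.37) and CREBBPA (-0.37) were called lower. The other MEF2D models, named after their values were seen, had log2 fold changes of 0.25 and 0.18 over all 16 fish and were not called. Among 35 tested models of MAP kinases, their activating kinases and scaffolds, 0 were called in limma, with log2 fold changes from -0.29 to 0.80 and a median of 0.09. Before adjustment, 5 were higher and 1 lower at p under 0.05. Under the same 3 scalings 1 model of MAP2K6 (1 OF 2) was called lower (-0.35 to -0.32). Over all models, 421 to 563 were called lower under these scalings. The other MAP2K6 models, named after their values were seen, had log2 fold changes of 0.06 and 0.13 in the main fit and were not called. Adjusted for the first principal component, 4 models of this list were called higher: MAPK11 (0.80), MAPK8B (0.64), MAPK8IP2 (0.47) and MAPK13 (0.23). That fit called 1915 of all 18529 tested models higher and 519 lower, so the count of 4 is near its share. Without both fish numbered 8, where 831 models were called higher, RPS6KA5 was called higher too (0.44, limma adjusted p = 0.047). Kinase activity is set by phosphorylation, which transcript levels do not show. Of 16 tested components of ubiquitin ligases known to act on JUN or FOS, 2 were higher and 1 lower. Over all models 3.61% were called higher and 1.25% lower. The cullin scaffold CUL4B rose in both of its models, Nfu_g_1_004770 (12.6 ± 2.52 TPM in bortezomib fish and 7.44 ± 1.96 TPM in DMSO fish; log2 fold change 0.71 ± 0.16, limma adjusted p = 0.0186) and Nfu_g_1_004574 (27.0 ± 2.70 TPM in bortezomib fish and 19.9 ± 4.14 TPM in DMSO fish; log2 fold change 0.44 ± 0.11, limma adjusted p = 0.0318). FBXW7, the substrate receptor of a ligase for phosphorylated JUN, fell to 22.1 ± 3.24 TPM in bortezomib fish, against 28.1 ± 2.73 TPM in DMSO fish (log2 fold change -0.34 ± 0.09, limma adjusted p = 0.0397). The call of the second CUL4B model ended without bortezomib replicate 2, 4, 5 or 6 or DMSO replicate 2, 3, 7 or 8 (limma adjusted p of up to 0.0658), and under median-of-ratios and upper-quartile scaling. That of FBXW7 ended without bortezomib replicate 1, 4, 5, 6 or 7 or DMSO replicate 1, 2, 3, 7 or 8 (limma adjusted p of up to 0.0758). The FBXW7 call also ended without the pituitary-positive fish (limma adjusted p = 0.115), and a second FBXW7 model, named after its values were seen, had a log2 fold change of 0.02.

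Of 28 tested models of genes described in mammals as AP-1 targets, 2 were higher, 1 was lower and 25 did not pass (over all models 3.61% were called higher and 1.25% lower), and the median log2 fold change was 0.11. CDK5, a neuronal kinase induced by FOSB in the rodent striatum, rose to 55.6 ± 6.06 TPM in bortezomib fish, against 37.1 ± 7.14 TPM in DMSO fish (log2 fold change 0.58 ± 0.11, limma adjusted p = 0.00578). FTH1A, a ferritin heavy chain that stores iron, rose to 172.9 ± 20.9 TPM in bortezomib fish, against 120.7 ± 23.9 TPM in DMSO fish (log2 fold change 0.53 ± 0.11, limma adjusted p = 0.014). The second FTH1A model, named after its values were seen, was not called (0.20, limma adjusted p = 0.098). The lower model was DUSP1, a phosphatase of MAP kinases and itself an immediate early gene, which averaged 7.13 ± 2.64 TPM in bortezomib fish and 24.4 ± 15.6 TPM in DMSO fish (log2 fold change -1.49 ± 0.31, limma adjusted p = 0.0108). Its call ended without the pituitary-positive fish (-1.05, limma adjusted p = 0.0736). Another 10 of the 38 models found for this list were too low to be tested, among them MMP9 and both MMP13 copies.

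Several other immediate early transcription factors were also lower in bortezomib brains. Their list was chosen with earlier results of these data known. It had 12 lower models, 0 higher and 9 that were not called, of 21 tested, with a median log2 fold change of -0.64. Over all models 1.25% were called lower and 3.61% higher. The 4 with the smallest p were IER2 (2 OF 2) at -1.67, IER2 (1 OF 2) at -1.17, NPAS4A at -1.21 and EGR4 (2 OF 2) at -0.83 (limma adjusted p of 6.23e-05 to 0.000881). NPAS4A, which neurons induce by calcium influx, was at 9.52 through 19.4 to 25.4 TPM in bortezomib fish and 32.9 through 44.4 to 59.1 TPM in DMSO fish, without overlap. Without the pituitary-positive fish 6 of the 21 were called lower, these 4 among them, and 66 of all 18529 tested models.

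**Figure D5:**
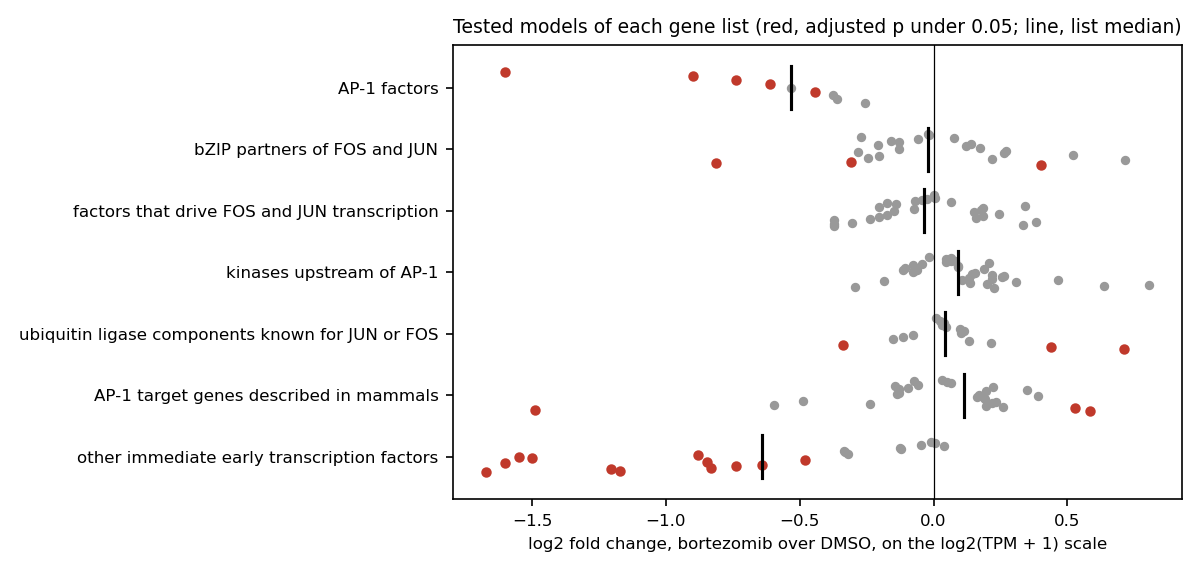
Log2 fold change, bortezomib over DMSO on the log2(TPM + 1) scale, of each tested model (points) in the AP-1 factors and in 6 related gene lists, with the list median as a vertical line and models at an adjusted p under 0.05 in red. The AP-1 factors and the other immediate early factors lie mostly left of 0, with medians of -0.53 and -0.64, and the medians of the other lists lie between -0.03 and 0.11.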

How the data were processed

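Brain RNA of 16 fish (8 bortezomib, 8 DMSO) was read from 1 deposited table of TPM values per gene model, which the authors made after demultiplexing with bcl2fastq 2.20.0.422 and alignment with STAR, per the submitters' processing notes. The sources used here do not give the read counter, genome build or annotation. Read depth per fish is unknown, since TPM sums to 1000000 in each fish. Fish were grouped by the treatment label. Models that reached 1 TPM in 8 or more fish were fitted as log2(TPM + 1) on group with limma 3.58.1 (R 4.3.3, intensity trend) and Benjamini-Hochberg adjustment over all 18529 models, at a threshold of 0.05. Fold changes on this scale understate the change of low models. Differences between members and FOSL1 were tested by two-sided exact permutation. Named models were the members, up to 4 called models per gene list, and the 3 profiles nearest to each tested member, other members aside. The members and lists were chosen with earlier results of these data known. Scripts were tested on simulated data. Alternatives covered pseudocount, filter, scaling, variance, covariates and omitted fish. No table identifier was found in the RefSeq gene table, so RefSeq served only for gene neighbours, and no sequence is shown.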

Additional observations from a re-analysis of the deposited data

Results flagged for a closer look

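In 96 groups of fish (each of the members and other named models in each treatment group), the highest or lowest fish was compared with the rest by Dixon's criterion, and 7 fish stood apart. The criterion picks out about 5% of groups by chance.

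Of the members, FOSL1 stood out in bortezomib replicate 4, at 0.938 TPM with the next fish at 0.587 TPM. JUND was low in bortezomib replicate 8, at 126.4 TPM with the next fish at 163.7 TPM. FOSL2 and JUNBB were both low in DMSO replicate 8, FOSL2 at 33.3 TPM with the next fish at 48.4 TPM and JUNBB at 69.3 TPM with the next fish at 133.6 TPM.

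Among the other named models, TMCC1 (2 OF 2) was low in bortezomib replicate 8, at 9.03 TPM with the next fish at 12.9 TPM. BAI1 (3 OF 3) was low in DMSO replicate 8, at 99.5 TPM with the next fish at 119.6 TPM. DUSP1 was high in DMSO replicate 6, a pituitary-positive fish, at 56.7 TPM with the next fish at 31.6 TPM.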

How the results depend on the processing

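All 9 tested members kept a log2 fold change below 0 under every alternative that gave a value, and no member's call changed on leaving out any 1 fish (5 called lower throughout). Without the 4 pituitary-positive fish, 3 members were called: the calls of JUN (-0.60) and JUNBB (-0.82) ended, and the FOSL1 difference was -0.25. Fewer fish enter that fit. Adjusted for the first principal component, the FOSB call was made (-0.53). The FOSL1 difference was -0.87 with a pseudocount of 0.1.

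The count of all models called lower was 232, and became 519 with the principal component, 421 with median-of-ratios scaling, 455 with upper-quartile scaling, 563 with quantile normalization and 66 without the pituitary-positive fish. The 669 called higher became 1915 with the principal component and 259 without those fish. On leaving out 1 fish, models called lower ranged from 116 to 269 and models called higher from 369 to 890. The counts moved by over 1.5 times without DMSO replicate 7 (130 lower), bortezomib replicate 6 (116 lower, 369 higher), bortezomib replicate 4 (142 lower, 391 higher) or bortezomib replicate 2 (428 higher). The cause was not tested.

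With the replicate number as a block, 116 models were called lower and 375 higher, and no member's call changed. Of the other named models, the calls of DUSP1 (limma adjusted p = 0.0544), PIM3 (0.0721), the second CUL4B model (0.0748), JDP2 (0.0857) and FBXW7 (0.0918) ended with the block. Between fish, log2(TPM + 1) profiles correlated at 0.928 to 0.981. With the mean of each group removed, same-numbered fish correlated at -0.24 to 0.415, over 0.1 in 3 of 8 numbers. By that measure 0 of 8 bortezomib fish correlated best with its own number. The main fit therefore did not pair them. Whether fish of the same number shared a batch or handling is not stated in the labels and was not tested.

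Depth is unknown, so the counting error of low models such as FOSL1 and ATF3 could not be given.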

Other observations

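BATF, a bZIP partner of JUN named here after its values were seen, was listed at 0 in bortezomib replicate 1 and at 22.3 to 46.1 TPM in the other 7 bortezomib fish. In DMSO fish it was at 3.08 TPM in replicate 8 and at 24.0 to 45.3 TPM in the other 7. The fitted log2 fold change of BATF was -0.27 ± 0.67 (limma adjusted p = 0.845).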
